A study of Macaca mulatta with 102 samples.

Results

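The transcripts described here are those of perilipin 2 (PLIN2) in the milk and mammary gland of the rhesus macaque (Macaca mulatta). They were chosen by position as the transcripts at 4 loci of the rheMac2 assembly, out of 42701 transcripts with a value. Transcript A (ENSMMUT00000025856) lies on chromosome 15 from 57864460 to 57866618. Transcript B (ENSMMUT00000016990) lies on the same chromosome from 58240050 to 58241364, and transcript C (ENSMMUT00000019644) from 57855543 to 57859818. Transcript D (ENSMMUT00000019645) lies on chromosome 14 from 67231622 to 67231997. The study asked which fraction of milk carries the RNA of the cells that make milk, and sequenced RNA from 6 lactating mothers, called M1 to M6 here. The 34 samples were 6 mammary biopsies (3 animals at day 30 of lactation and 3 at day 90), 12 milk cell samples (6 animals on both days), 10 milk fat samples (4 animals at day 30 and 6 at day 90) and 6 further milk samples of day 90. The labels name these last samples FatS10 in 5 animals (once spelled FatsS10) and Skim10m in M3 and do not say what the names stand for, so FatS10 was taken as a type of its own and the Skim10m sample was kept apart. The study speaks of cell-free milk collected at day 90, and these samples may be that fraction by elimination. All animals were mature multiparous females nursing a male infant, and received the sedative ketamine for the procedure and oxytocin for milk let-down. Biopsies were cores taken with a vacuum-assisted needle, milk fat was the layer lifted off after centrifugation, and milk cells were the washed pellet. The study reports lower RNA integrity in macaque milk fat than in milk cells or mammary tissue. It left out day 30 milk RNA of some animals because its quality was too low. Integrity was not given per sample, and its relation to PLIN2 levels and shares was not tested.

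Perilipin 2 coats the surface of lipid droplets inside cells. In the lactating mammary gland the epithelial cells pack triglyceride into such droplets, move them to the apical membrane and release them as milk fat globules, and perilipin 2 is one of the abundant proteins of the globule. Globules can carry a crescent of cytoplasm, with its RNA, into the milk fat layer. For reference, 3 other abundant milk transcripts are given beside it, namely the highest transcript of CSN2 (the milk protein beta-casein), LALBA (alpha-lactalbumin, a subunit of the enzyme that makes lactose) and FABP3 (a carrier of fatty acids in the cytoplasm).

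Expression was measured as FPKM (mapped fragments divided by transcript length and library size), which is a level per length. Loci A and C are 4642 bases apart, B is 373 kb from A, and none of the 4 overlaps another annotated transcript. Within 50 kb of them lie 7 other transcripts, and the highest of these reached 2.67 FPKM in any sample. The 4 loci span 2159 (A), 1315 (B), 4276 (C) and 376 (D) bases, introns included. Reads from alike copies can be divided among loci by the estimation of FPKM, and how alike the 4 loci are was not tested, so the level of a single transcript is less certain than their sum. The names PLIN2, CSN2, LALBA and FABP3 were tied to transcripts through the mean levels that the study tabulates, and markers of cell types could not be checked because identifiers were not paired with names. PLIN2 is tabulated there only among the most abundant transcripts of milk fat, from these same data. FPKM carry no read numbers. Relative depth estimated from the spacing of low FPKM ranged from 0.740 to 1.63 times that of the median sample and overlapped among all types. Among 102 sequencing runs, 3 per sample, 100 resembled a run of their own sample most, and the other 2 were runs of the day 30 milk fat of M6, which resembled its day 90 milk fat.

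The summed level of the 4 PLIN2 transcripts differed between sample types, given here in FPKM as deposited. Milk fat differed from milk cells and from biopsies by more than samples of the same type differed among themselves. After scaling between samples, milk cells differed from biopsies by 0.84 on the log2 scale, or 1.79-fold. The SD of milk cells between the 6 animals was 0.32 on that scale. From the lowest to the highest milk cell sample the scaled sum spanned 2.80-fold. In milk fat at day 30 the summed level as deposited was 157717 FPKM in M1, 101648 FPKM in M2, 311416 FPKM in M3 and 44612 FPKM in M6. At day 90 it was 46985 FPKM in M1, 80106 FPKM in M2, 86884 FPKM in M3, 98793 FPKM in M4, 26029 FPKM in M5 and 79642 FPKM in M6. Milk fat thus held the highest levels, and M3 at day 30 stood above every other sample. The FatS10 samples had 19904 FPKM in M1, 24567 FPKM in M2, 22526 FPKM in M4, 11069 FPKM in M5 and 16114 FPKM in M6, and the Skim10m sample of M3 had 23887 FPKM. All 6 lay below the lowest milk fat sample and above the highest milk cell sample. After scaling between samples, the Skim10m sample came to 25847 FPKM, above the lowest milk fat sample (M5, day 90) at 24964 FPKM. Milk cells ranged from 2467 to 7263 FPKM with a median of 3619 FPKM (n = 12). Mammary biopsies ranged from 1309 to 2355 FPKM with a median of 1629 FPKM (n = 6). The descending order was therefore milk fat, FatS10, milk cells and biopsies, with no overlap between neighbours, although the highest biopsy (M4) and the lowest milk cell sample (M3, day 30) were close. How many of all transcripts separate the types in this way was not counted. In bulk RNA, fewer cells of a type and less RNA per cell cannot be told apart.

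**Figure D1:**
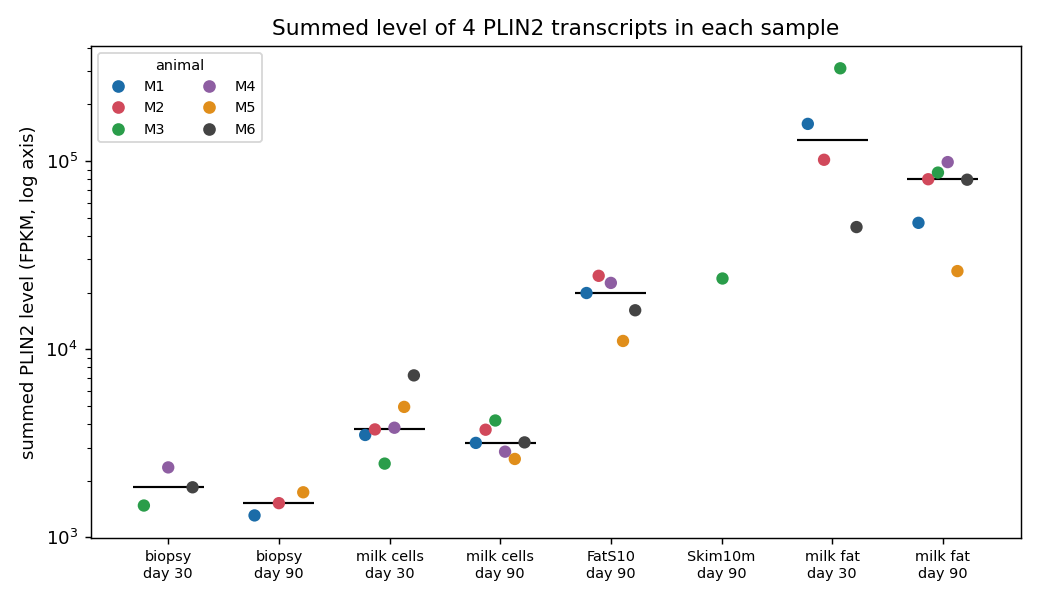
Summed FPKM of the 4 PLIN2 transcripts (log axis) in each of 34 samples, grouped by sample type and day; points are samples coloured by animal and bars are group medians. Milk fat samples lie between 26029 and 311416 FPKM, FatS10 between 11069 and 24567, milk cells between 2467 and 7263 and biopsies between 1309 and 2355.

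As a part of all transcripts, PLIN2 took from 2.30% to 26.3% of the summed FPKM of a milk fat sample, with a mean of 8.90% ± 6.92 (SD, n = 10). This part was 1.73% ± 0.479 of FatS10 (SD, n = 5), 0.359% ± 0.116 of milk cell samples (SD, n = 12) and 0.172% ± 0.0478 of biopsies (SD, n = 6). By level, transcript A ranked from 2 to 16 among all transcripts in the milk fat samples and transcript D from 4 to 13. In biopsies A ranked from 50 to 65 and D from 22 to 31. Transcript C, the lowest of the 4, ranked from 11 to 26 in milk fat and from 266 to 456 in biopsies.

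Each transcript followed the same order of types. For transcript A, the 10 milk fat samples averaged 42228 ± 34869 FPKM (SD), the 5 FatS10 samples 6304 ± 1812, the 12 milk cell samples 1121 ± 445 and the 6 biopsies 475 ± 87.3. For transcript D, the same groups averaged 37908 ± 29354, 7987 ± 2213, 1768 ± 547 and 865 ± 184 FPKM (SD). Transcript B ranged from 4210 to 49791 FPKM in milk fat and from 175 to 392 FPKM in biopsies. Transcript C ranged from 1628 to 18127 FPKM in milk fat and from 65.7 to 147 FPKM in biopsies. D was the highest of the 4 in every biopsy, milk cell, FatS10 and Skim10m sample, while in milk fat A was above D in 6 of 10 samples. B was above C in all 34 samples.

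Milk fat was compared with mammary biopsies over 6 animals, after the days of an animal had been averaged on the log2 scale. The summed level was 39.2 times higher in milk fat, a log2 difference of 5.29, and it was higher in 6 of 6 animals (exact permutation test, two-sided p = 0.00216, the smallest that 6 against 6 allows; adjusted p = 0.00390 over 9 comparisons). All 4 transcripts were called higher by limma with an adjusted p below 0.05 and a change past 3-fold, where 3.24% of the 13413 transcripts tested were called higher. The log2 fold change was 5.81 for A (standard error 0.38, adjusted p = 1.04e-07), 5.49 for B (0.39, 2.08e-07), 5.16 for C (0.38, 2.63e-07) and 4.84 for D (0.37, 4.45e-07). These were the 4 highest log2 fold changes of all transcripts tested. That rank is in part built in, because PLIN2 was known from the study's list of transcripts most abundant in milk fat. In contrast to the PLIN2 transcripts, LALBA differed by 1.05 (standard error 0.21, adjusted p = 0.00103), CSN2 by -0.94 (0.31, 0.0219) and FABP3 by 0.67 (0.40, 0.168) on the same scale.

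Against milk cells the summed level in milk fat was 21.9 times higher, a log2 difference of 4.46, again in 6 of 6 animals (exact permutation test, two-sided p = 0.00216, adjusted p = 0.00390). All 4 transcripts were called higher, where 0.592% of 13521 transcripts were. Transcript A had the highest log2 fold change of all transcripts, 4.91 (standard error 0.40, limma adjusted p = 2.10e-05). B, C and D followed at ranks 3 to 5, with 4.49, 4.12 and 4.12 (standard errors 0.40, 0.38 and 0.38). The limit on ranks given for biopsies holds here too. LALBA and CSN2 differed by 0.16 and -0.32 and did not pass the threshold (limma adjusted p = 0.689 and 0.368), and FABP3 was higher in milk fat by 0.84 (standard error 0.20, adjusted p = 0.00494). Within an animal and day, the milk fat of day 90 held from 9.97 (M5) to 34.6 (M4) times the summed PLIN2 level of its milk cells, and that of day 30 from 6.14 (M6) to 126 (M3) times.

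Milk cells and biopsies differed by less. The summed level was 1.79 times higher in milk cells (log2 difference 0.84, in 6 of 6 animals, exact permutation test, two-sided p = 0.00216, adjusted p = 0.00390). The log2 fold change was 0.90 for A (standard error 0.16, limma adjusted p = 0.000785), 0.997 for B (0.16, 0.000278), 1.04 for C (0.16, 0.000206) and 0.72 for D (0.17, 0.00451). Each passed the adjusted p but none reached 3-fold, so 0 of 4 were called, where 1.94% of 14172 transcripts were called higher. At the adjusted p alone 21.5% of transcripts were higher in milk cells, so that 4 of 4 at this size is to be read against a common outcome. The first number in the sample titles splits the samples into 3 sets (2, 3 and 4), read here as sequencing pools, although the labels do not say what it stands for. Each set held the milk of 2 animals, and the biopsy of M5 was in set 3 while its milk was in set 4, which had 1 biopsy. Within these sets the log2 difference in the sum was 0.59, 0.84 and 1.24. It was 5.31, 6.31 and 4.73 for milk fat against biopsies and 4.72, 5.48 and 3.50 for milk fat against milk cells.

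**Figure D2:**
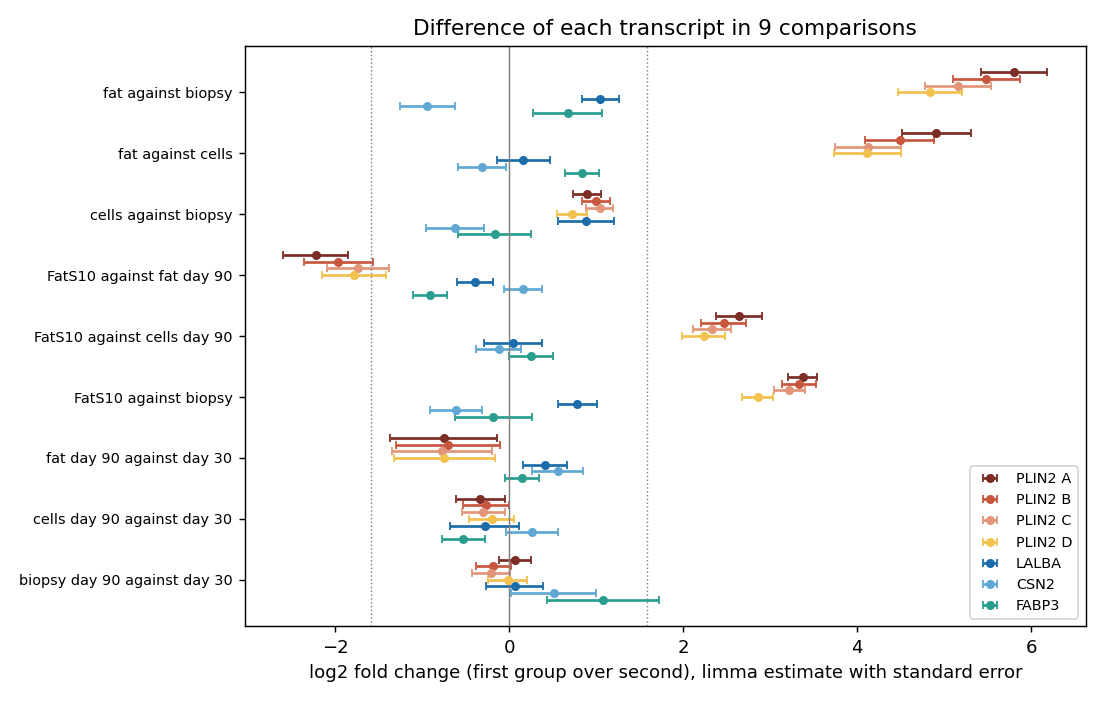
Log2 fold change (x axis) of the 4 PLIN2 transcripts, LALBA, CSN2 and FABP3 in 9 comparisons (y axis); points are limma estimates, bars are standard errors and dotted lines mark 3-fold. The PLIN2 transcripts lie from 4.84 to 5.81 for milk fat against biopsies and from -2.23 to -1.74 for FatS10 against milk fat of day 90.

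The FatS10 samples lay between milk fat and the other types. Against milk fat of the same day the summed level was 25.3% as high (log2 difference -1.98, lower in 5 of 5 animals, exact permutation test, two-sided p = 0.00433, adjusted p = 0.00649). All 4 transcripts were called lower, where 0.282% of 12759 transcripts were, with log2 fold changes of -2.23 for A (standard error 0.37, limma adjusted p = 0.00836), -1.97 for B (0.40, 0.0106), -1.74 for C (0.36, 0.0110) and -1.79 for D (0.37, 0.0111). With animal as a block, C came to -1.56, just under 3-fold, at a limma adjusted p of 0.0115, and it came to the same value without M3, whose milk has no FatS10 sample. Without the filter on low FPKM, A and D no longer passed (limma adjusted p = 0.0745 and 0.162). In single animals FatS10 held 42.4% (M1), 30.7% (M2), 22.8% (M4), 42.5% (M5) and 20.2% (M6) of the PLIN2 level of the animal's milk fat, and the Skim10m sample held 27.5% of that of M3. FABP3 was also lower in FatS10, by -0.91 (standard error 0.20, limma adjusted p = 0.0123), while LALBA (-0.39, adjusted p = 0.183) and CSN2 (0.16, adjusted p = 0.633) did not pass the threshold.

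Against milk cells of day 90, PLIN2 was 5.30 times higher in FatS10 (log2 difference 2.41, in 5 of 5 animals, exact permutation test, two-sided p = 0.00216, adjusted p = 0.00390). The 4 PLIN2 transcripts were among only 5 transcripts called higher, or 0.0372% of 13456. Their log2 fold changes were 2.64 for A, 2.46 for B, 2.33 for C and 2.23 for D, with limma adjusted p from 0.00139 to 0.00252. Without the filter on low FPKM, D no longer passed (limma adjusted p = 0.0630). Against biopsies FatS10 was 8.66 times higher in the sum (log2 difference 3.11, in 5 of 5 animals, exact permutation test, two-sided p = 0.00216, adjusted p = 0.00390). All 4 transcripts were called higher, where 1.57% of 13781 were, with log2 fold changes from 2.86 (D) to 3.38 (A). The biopsies were of either day, so the FatS10 samples of M4 and M6 were set beside biopsies of day 30. The comparisons of FatS10 share samples with each other and with those of milk fat.

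Because the samples of a comparison came from the same animals, each sum was also compared within animals. The direction was the same in every animal that had both types. With animals as pairs the exact sign-flip test cannot give a p under 0.03125 for 6 animals or 0.0625 for 5, and these values were reached in all 6 comparisons of types. After adjustment over 8 comparisons, those of days among them, they came to 0.0833, which does not pass the threshold. In limma with animal as a block, all 4 transcripts kept their calls for milk fat and for FatS10 against milk cells and biopsies.

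The transcripts did not keep one ratio across sample types. Transcript A made up 28.0% ± 1.70 of the summed PLIN2 level (SD over 6 biopsies), 29.2% ± 2.36 (12 milk cell samples), 33.5% ± 0.976 (5 FatS10 samples) and 40.1% ± 3.84 (10 milk fat samples). Transcript D went the other way, with 50.8% ± 2.99, 46.9% ± 2.27, 42.5% ± 0.734 and 37.3% ± 3.24 in the same order. The shares of a sample add up to the whole, so the results for A and D are not independent. The share of B lay between 12.6% and 18.5% and that of C between 5.02% and 8.20% in all samples. Averaged by animal, the share of A in milk fat was 12.1 percentage points above that in biopsies and 10.8 points above that in milk cells, each in 6 of 6 animals and without overlap of the groups (exact permutation test, two-sided p = 0.00216, adjusted p = 0.00974 over 36 comparisons). The share of D in milk fat differed by -13.6 points from that in biopsies and by -9.74 points from that in milk cells, with the same p in the same test. For C the share in milk fat differed by -1.52 points from that in milk cells (exact permutation p = 0.00216, adjusted p = 0.00974) and by -0.58 points from that in biopsies (p = 0.227). For B no difference in share passed the adjusted threshold (exact permutation test, lowest adjusted p = 0.0675).

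FatS10 had an intermediate share of both, where the biopsies were again of either day. Transcript A took 5.56 points more than in biopsies and 5.05 points more than in milk cells of day 90 (exact permutation test, two-sided p = 0.00216, adjusted p = 0.00974 each), and differed by -6.42 points from milk fat of day 90 (p = 0.0108, adjusted p = 0.0354). Transcript D differed by -8.36 points from biopsies (exact permutation p = 0.00433, adjusted p = 0.0173), by -5.38 points from milk cells (p = 0.00216, adjusted p = 0.00974) and by 5.19 points from milk fat (p = 0.00866, adjusted p = 0.0312). The 3 differences in share between FatS10 and milk fat, including that of 1.08 points for C, lost the adjusted threshold when M1, M2, M4, M5 or M6 was left out. So did that of D between FatS10 and biopsies (exact permutation test, adjusted p from 0.0571 to 0.0635), and that of A between FatS10 and milk cells when M2 or M5 was left out (adjusted p = 0.0635). Between milk cells and biopsies none of the 4 shares differed past the adjusted threshold, the nearest being -3.88 points for D (exact permutation p = 0.0260, adjusted p = 0.0675). No difference in share between days passed the test in any type (exact permutation test, adjusted p from 0.320 to 0.990), where biopsies with 3 against 3 samples could not give a p under 0.1. Paired by animal, none of the differences in share passed the adjusted threshold in the exact sign-flip test, whose smallest p is the one given above.

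**Figure D3:**
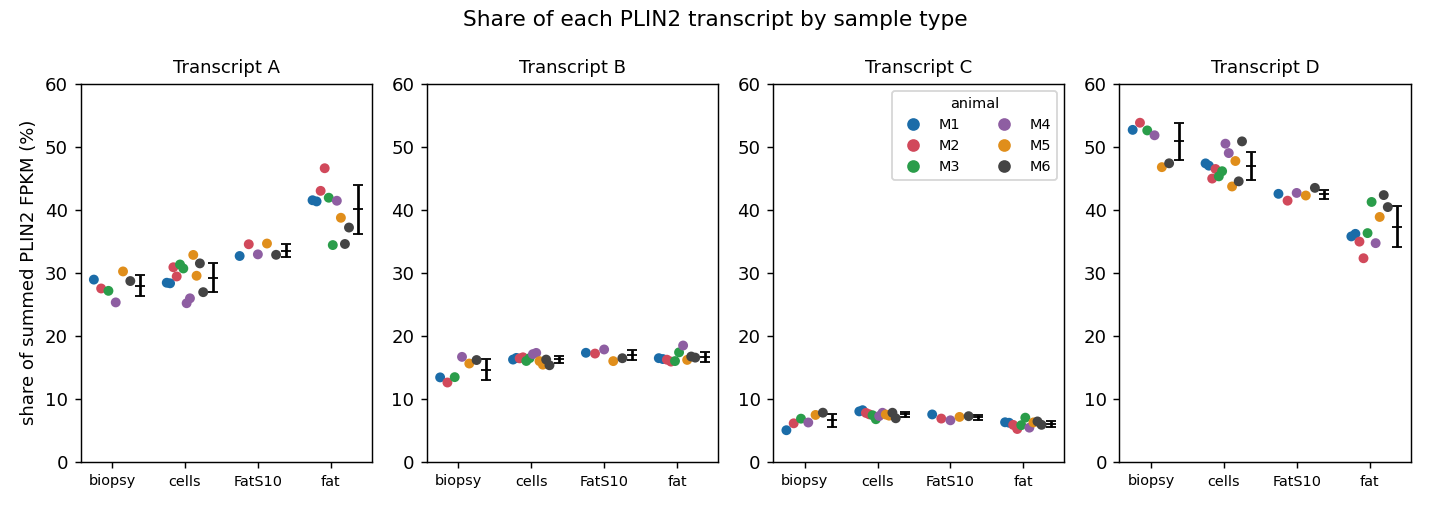
Share of each PLIN2 transcript in their summed FPKM (y axis, percent) by sample type; points are samples coloured by animal, and the bar beside each group is its mean with the SD. The share of transcript A has a mean of 28.0% in biopsies and 40.1% in milk fat, and that of D of 50.8% and 37.3%.

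A ratio of levels within a sample does not depend on the scaling between samples. For every 100 FPKM of LALBA, the PLIN2 sum came to 98.4 ± 71.3 FPKM (SD over 10 samples) in the fat layer, 20.6 ± 7.97 (5 samples) in FatS10, 3.99 ± 1.52 (12 samples) in cells and 3.93 ± 0.993 (6 samples) in biopsies. In milk fat the sum stood above LALBA in 3 samples, the day 30 samples of M1, M2 and M3, and above CSN2 in that of M3, where PLIN2 had 141 FPKM for every 100 of CSN2. Here levels of 4 loci are summed and set against a single transcript, and the study lists another CSN2 transcript. In that sample of M3 the highest single locus, A, had 130490 FPKM, against 220260 for CSN2 and 117250 for LALBA. In the day 30 samples of M1 and M2, A alone was below LALBA. The sum stood above FABP3 in 9 of 10 milk fat samples, in 2 of 5 FatS10 samples and in the Skim10m sample. It did so in no milk cell or biopsy sample. Relative to LALBA, PLIN2 in milk fat was 19.6 times that of milk cells and 18.99 times that of biopsies, each in 6 of 6 animals (exact permutation test, two-sided p = 0.00216, adjusted p = 0.00300 over 18 comparisons). Milk cells and biopsies had nearly the same ratio to LALBA, with a log2 difference of -0.05 that did not pass the threshold (exact permutation p = 0.870), and 3 of 6 animals were lower in cells. Relative to CSN2, PLIN2 was 2.76 times higher in milk cells than in biopsies (in 6 of 6 animals, exact permutation p = 0.00216, adjusted p = 0.00300), and relative to FABP3 it was 2.01 times higher, which missed the threshold (p = 0.0541, adjusted p = 0.0573). That ratio passed with the milk cells of day 90 alone (log2 difference 1.14, exact permutation p = 0.0368, adjusted p = 0.0414 over 9 comparisons, in 6 of 6 animals) and without M4 (adjusted p = 0.0190). Of the 18 ratios compared between types, 16 passed the adjusted threshold. The weakest of these was the ratio to FABP3 in FatS10 against milk fat (log2 difference -1.07, exact permutation p = 0.0433, adjusted p = 0.0487), and it no longer passed when M1, M2, M3 or M6 was left out. Paired by animal, 0 of the 18 passed after adjustment over all 18 in the exact sign-flip test, where the smallest p allowed is the one given above.

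**Figure D4:**
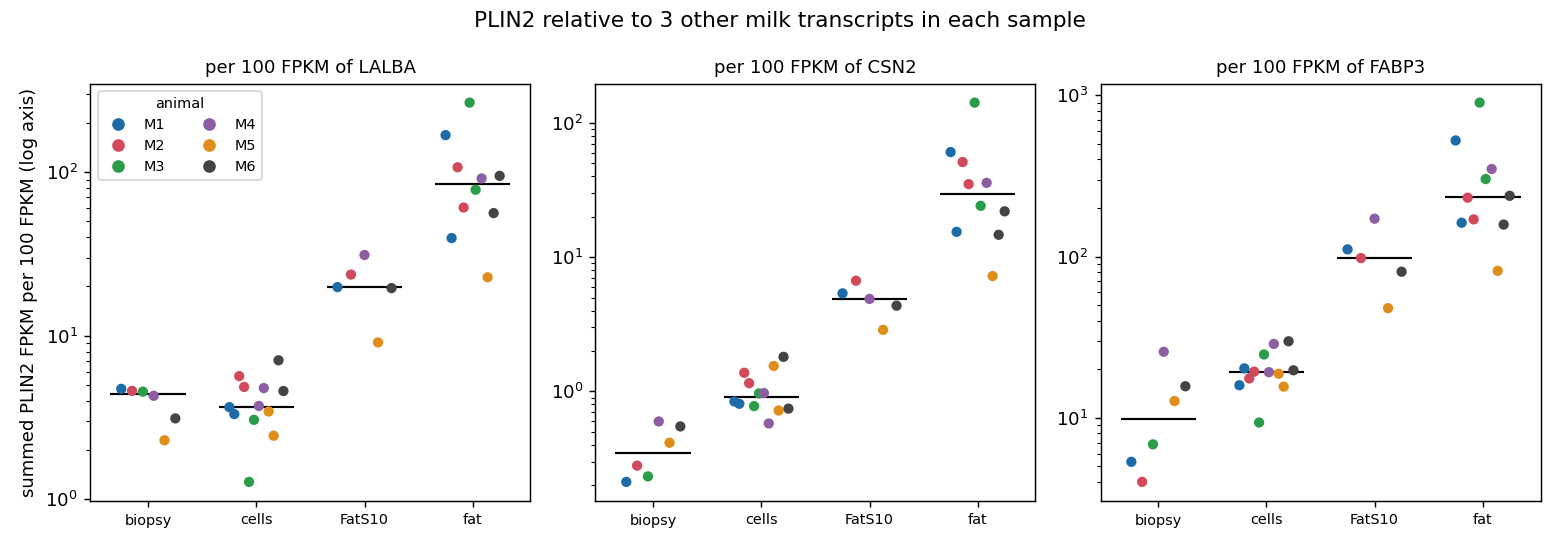
Summed PLIN2 FPKM for every 100 FPKM of LALBA, CSN2 or FABP3 (log axes) in each sample of 4 types; points are samples coloured by animal and bars are medians. Relative to LALBA, milk fat samples lie from 22.7 to 266, FatS10 from 9.09 to 31.1, milk cells from 1.28 to 7.07 and biopsies from 2.30 to 4.73.

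No change of PLIN2 between day 30 and day 90 of lactation passed the tests. In milk fat the log2 difference of the sum (day 90 less day 30) was -0.74 (6 samples against 4, exact permutation test, two-sided p = 0.319, adjusted p = 0.410). From day 30 to day 90 the deposited level changed to 0.298 times in M1, 0.788 times in M2, 0.279 times in M3 and 1.79 times in M6, so that M6 went against the other animals. After scaling between samples M2 was also higher at day 90, by 0.05 on the log2 scale. The day 30 milk fat of M6 is the sample whose runs resembled its day 90 sample, and without M6 the log2 difference was -1.25, while without M3 it was -0.31. The 4 transcripts had log2 fold changes from -0.77 to -0.70 with standard errors from 0.57 to 0.62 (limma adjusted p from 0.933 to 0.941). By limma 0 of 12609 transcripts were called in either direction (0% higher and 0% lower), and 661 had an unadjusted p under 0.05.

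In milk cells the log2 difference was -0.26 (6 samples against 6, exact permutation test, two-sided p = 0.374, adjusted p = 0.421), and the level was lower at day 90 in 5 of 6 animals. The ratio of day 90 to day 30 ranged from 0.440 in M6 to 0.996 in M2 among these and was 1.69 in M3. Without M3 the log2 difference was -0.50 and passed the threshold (exact permutation p = 0.0317, adjusted p = 0.0408). The transcripts had limma log2 fold changes from -0.33 to -0.20 (adjusted p from 0.446 to 0.635), and 0 of 4 were called, where 0.0796% of 13815 transcripts were called higher and 0.0145% lower. In biopsies, taken from different animals on the 2 days, the log2 difference was -0.03 (3 against 3, exact permutation test, p = 0.8, smallest possible 0.1). By limma 0 of 13762 transcripts were called between the days of the biopsies, and 441 had an unadjusted p under 0.05. In the 4 animals with all milk samples, the change in milk fat less that in milk cells was -1.38 in M1, 0.05 in M2, -2.72 in M3 and 2.04 in M6 on the log2 scale, with a mean of -0.50 (exact sign-flip test, p = 0.75, smallest possible 0.125).

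**Figure D5:**
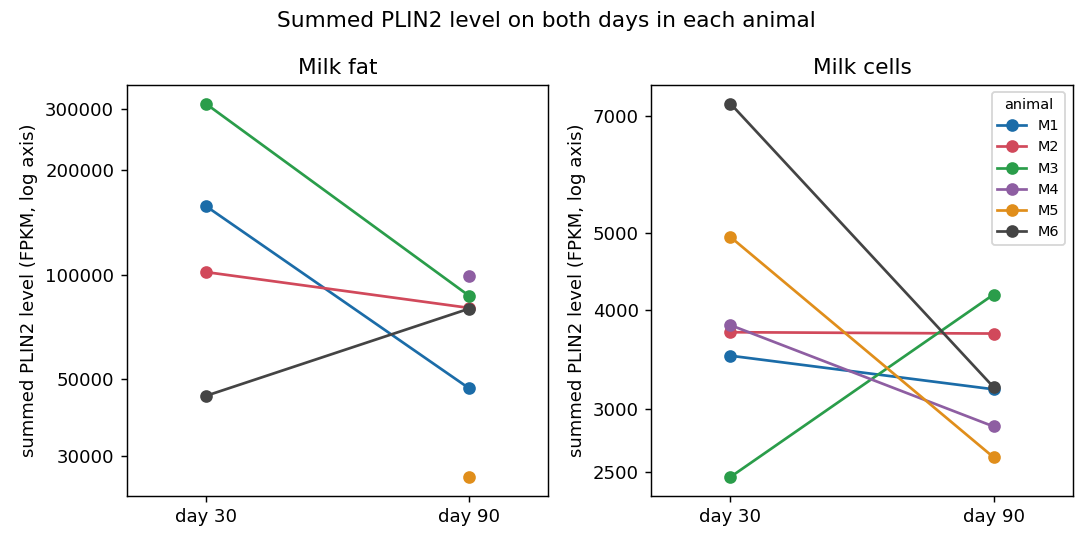
Summed PLIN2 FPKM (log axes) at day 30 and day 90 in milk fat (left) and milk cells (right); each colour is an animal and lines join its 2 samples. In milk fat the level of M6 was higher at day 90 and those of M1, M2 and M3 were lower, and in milk cells the level of M3 was higher and those of the other 5 animals were lower.

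Animals differed most in milk fat. The highest summed level was 11.96 times the lowest in milk fat, 2.94 times in milk cells, 2.22 times in FatS10 and 1.80 times in biopsies. Within days the figure for milk fat was 6.98 times at day 30 and 3.80 times at day 90, and over both days it was 6.06 times without the day 30 sample of M3. On the log2 scale the SD between samples was 0.996 in milk fat, 0.42 in milk cells, 0.46 in FatS10 and 0.30 in biopsies, while the median SD between runs of a sample was at most 0.017. The runs of a sample were not said to be separate extractions. Without the day 30 sample of M3, the mean in milk fat was 80268 ± 38993 FPKM (SD, n = 9) in place of 103383 ± 81820 FPKM (SD, n = 10). M5 had the lowest level in milk fat, in FatS10 and in milk cells of day 90.

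Whether an animal with much PLIN2 RNA in one kind of sample also had much in another was tested over the 6 animals for 3 relations, on the log2 scale. Milk cells and milk fat of day 90 had Pearson r = 0.40 (exact permutation p = 0.404, adjusted p = 0.706) and Spearman rho = 0.37 (exact permutation p = 0.497, adjusted p = 0.714), and r = -0.09 without the 2 animals farthest from the median in milk cells. Biopsies and milk fat of day 90 had r = 0.38 (exact permutation p = 0.471, adjusted p = 0.706) and rho = 0.60 (exact permutation p = 0.242, adjusted p = 0.714), and r = 0.79 without the 2 farthest. Milk cells of day 30 and day 90 had r = -0.11 (exact permutation p = 0.747, adjusted p = 0.747) and rho = -0.20 (exact permutation p = 0.714, adjusted p = 0.714), and r = -0.88 without the 2 farthest. The biopsies in these relations were of either day. None of the relations passed the threshold. In FPKM as deposited, r was 0.58, 0.29 and -0.57 in the same order (exact permutation test, adjusted p = 0.365, 0.536 and 0.365). Each set of sample titles held the milk of too few animals for a value within sets.

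The transcripts whose pattern was most like that of the PLIN2 sum were looked for among 13704 transcripts with a mean of at least 1 FPKM over the 34 samples. The 4 PLIN2 transcripts themselves had r from 0.998 to 0.999 with the sum, of which they are parts. Among the others the median r was 0.04 and 9 transcripts were above 0.9. The most alike was ENSMMUT00000024754 (chromosome 14, 116740082 to 116777631) with r = 0.96. Its level was far lower than that of PLIN2, from 42.3 to 213 FPKM in milk fat (median 77.7), from 19.2 to 26.9 in FatS10, from 4.09 to 13.2 in milk cells and from 1.62 to 3.07 in biopsies. Its types thus did not overlap either, which was not counted over all transcripts. It had the fifth highest log2 fold change of milk fat against biopsies, 4.35 (standard error 0.33, limma adjusted p = 4.04e-07). The next was ENSMMUT00000021524 with r = 0.96, and it was also the most alike over the 10 milk fat samples alone (r = 0.95), from 10.6 to 69.8 FPKM in milk fat and from 0.868 to 1.90 in biopsies. The other 3 of the 5 most alike over all samples had r from 0.91 to 0.93, and those over the milk fat samples r from 0.92 to 0.93. These identifiers were not paired with gene names. LALBA, CSN2 and FABP3 had r of 0.42, -0.45 and 0.51 with the PLIN2 sum over all samples and 0.28, -0.16 and 0.40 within milk fat. All these values share libraries and scaling and are given as descriptions.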

How the data were processed

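FPKM per transcript and technical run were analysed as the authors deposited them. The authors removed adaptors from single-end poly(A) reads with Scythe, trimmed with Sickle, aligned to rheMac2 with TopHat and derived FPKM with Cufflinks for Ensembl transcripts. The tool versions are not given in the sources used here. Of the columns, 6 match no sample and were not used. FPKM hold no counts, so a test on counts, as in the study, was replaced by limma.

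The 3 runs of a sample were averaged, PLIN2 FPKM were summed, and samples were divided by median-of-ratios factors (0.691 to 1.40, over 21792 transcripts above 0 throughout). limma 3.58.1 (R 4.3.3, trended prior) was fitted to log2(scaled FPKM + 1) of transcripts with a mean of at least 1 FPKM in the samples compared, two-sided, with Benjamini-Hochberg adjustment over all of them; fold changes of low transcripts are understated on this scale. Sums, shares and ratios were compared by exact permutation of labels, with adjustment over each family, in Python 3.11.15. A call took a change past 3-fold with an adjusted p below 0.05. On simulated data with 200 transcripts changed 9-fold, 95% were called for milk fat against biopsies, 98% for FatS10 against milk fat, 99% for milk fat days and 81% for biopsy days. Both groups were drawn with the means and SDs of the second type named, so milk fat against biopsies had the scatter of biopsies. No smaller change was simulated, so these rates do not say how often a change as small as that of PLIN2 between days would be called.

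Pairing comes from the labels, which give the animal. Deviations from group means correlated within animals at 0.406 for milk fat with milk cells, 0.154 for milk fat with biopsies and 0.182 for milk cells with biopsies. Nothing in the labels says that runs were separate extractions, and they were counted once. Transcripts named are the 4 of PLIN2, their sum, LALBA, CSN2, FABP3, neighbours within 50 kb, and the 5 most correlated with the sum over all and over milk fat samples, where at most 2 unnamed identifiers are printed. Lists of lipid droplet genes and cell type markers were not applied, since identifiers were not paired with names. The members and lists were chosen with earlier results of these data known.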

Additional observations from a re-analysis of the deposited data

Results flagged for a closer look

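The level of transcript D in the biopsy of M4 was 1220 FPKM, which lay far from the next highest of the 6 biopsies, 875 FPKM, with a gap of 0.651 of the whole range. It was 1 of 72 sets of 4 to 10 samples examined, and chance alone marks about 1 set in 20. Levels were examined in FPKM as deposited, and D was not examined after the scaling between samples used in the comparisons. The scaled sum of the 4 transcripts was 2140 FPKM in the biopsy of M4 and 2139 FPKM in that of M3.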

How the results depend on the processing

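FPKM give no depth per transcript, and the biopsy days rest on 3 samples each, which limits what could be detected there. Animal as a replicate block in the exact sign-flip test left the log2 difference of the sum at 5.29 for milk fat against biopsies, 4.46 against milk cells, 0.84 for milk cells against biopsies, -1.85 for FatS10 against milk fat, 2.58 against milk cells and 3.14 against biopsies. Each had an adjusted p of 0.0833 over 8 comparisons in this test. The number of animals and the adjustment over this family together set that value, since the unadjusted p with 6 animals was 0.03125. Under this block 0 of 32 differences in share and 0 of 18 ratios passed, in place of 12 of 36 and 16 of 18. No paired analysis was possible for the biopsy days because they hold different animals. The block changed no other call except that of transcript C for FatS10 against milk fat. Without the filter on low FPKM, 2 of 4 transcripts were called for FatS10 against milk fat and 3 of 4 against milk cells, in place of 4; more transcripts are then tested. With 1 animal left out, the sum in milk cells (day 90 less day 30) ranged from -0.50 (without M3, the call given above) to -0.078 (without M6), that in biopsies from -0.15 to 0.026, the number of shares that passed from 7 to 12, and r of milk cells between days from -0.33 to 0.66 (without M3); transcript A in biopsies ranged from -0.012 to 0.13 and D from -0.19 to 0.067. In FPKM as deposited, transcript A in biopsies differed between days by -0.20. Scaling moved the median of all transcripts, which was 0.07 (milk fat against biopsies), 0.02 (milk cells against biopsies) and 0.05 (FatS10 against biopsies), to 0.23, 0.24 and 0.30 in FPKM as deposited, where 616 transcripts were called higher and 742 lower in milk fat than in biopsies in place of 435 and 849. All 4 PLIN2 transcripts kept their direction in the 6 comparisons of types under every alternative run. Their sum in place of the 4 transcripts in limma gave the same calls in all 9 comparisons.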
